A study of Solanum lycopersicum with 12 samples.

Results

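Among the 10038 tomato probe sets of the array, 57 (0.568%) differed from untreated control plants in one direction after treatment with the wild-type fungus T34 and in the opposite direction after treatment with both of its amdS transformants. A probe set is a group of short array probes that reads 1 transcript. The members were chosen from group means of the log2 signal: a T34 mean at least 0.25 away from the control mean, and amdS122 and amdS6 means both at least 0.4 away from it with the opposite sign. Of the 57, 38 were higher with T34 and lower with both transformants, and 19 were lower with T34 and higher with both transformants. The differences from control therefore chose the members, and are given below as a description without a test. The difference between amdS122 and amdS6 was not used in the choice and was tested.

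The study asked how tomato plants of the cultivar Marmande respond to a root-colonizing biocontrol fungus that gained an acetamidase. Seeds were coated with spores of 1 of 3 Trichoderma harzianum strains and plants grew in autoclaved soil in a greenhouse. The groups were amdS122, amdS6, T34 and control (untreated seeds), each with 3 arrays, and each array held RNA pooled from several 3-week-old plants. T34 is the wild type. The strains amdS6 and amdS122 (spelled amds6 and amds122 in the labels) are each 1 monosporic T34 transformant that expresses the amdS acetamidase gene of Aspergillus nidulans from the gpdA promoter, and amdS122 carries more copies of it. No group carried the transformation vector without amdS, so an effect of amdS and an effect of transformation as such cannot be told apart. The labels call the tissue leaves in 1 field and aerial parts in another. Plants of a group are called by their strain below.

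Trichoderma species live on and in roots, and signals from the root change transcript levels in the shoot. Shoot responses to such fungi are known to touch defense proteins, such as pathogenesis-related proteins and chitinases, and primary metabolism. Phosphoenolpyruvate carboxylase (PEPC) fixes bicarbonate into oxaloacetate and so supplies carbon skeletons to which assimilated nitrogen is added, and its kinase makes the enzyme less sensitive to inhibition by malate. Nitrate reductase makes the first step of nitrate assimilation, and class 1 plant hemoglobins remove nitric oxide.

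The arrays were alike in overall signal, with medians between 7.80 and 7.87 on the log2 scale, and correlated at 0.9976 or more within groups. The leaf mesophyll markers (3 chlorophyll a/b-binding proteins and PSBO) had summed log2 signals of 16.18 to 16.19 in amdS122, 16.14 to 16.18 in amdS6, 16.13 to 16.15 in T34 and 16.14 to 16.16 in control, so the markers of the labelled tissue were present in all groups. The 3' minus 5' signal of 3 control transcripts, which is higher where RNA or cDNA is less complete, was 2.77 to 3.01 in amdS122, 2.99 to 3.12 in amdS6, 3.20 to 3.28 in T34 and 3.30 to 3.44 in control, and its part in the differences from control was not tested. The mean log2 signal of the hybridisation spikes was 10.85 to 11.02 in amdS122, 10.57 to 10.79 in amdS6, 10.84 to 10.97 in T34 and 10.81 to 11.20 in control, lowest in amdS6. All 3 differences from control share the same control arrays. In whole shoots, a lower level per cell and fewer cells of a type cannot be told apart.

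Most transcripts that moved with both transformants lay within the T34 limits. Over all probe sets, 335 (3.34%) were at least 0.25 higher and 245 (2.44%) at least 0.25 lower in T34 than in control. Of 395 probe sets at least 0.4 lower in both transformants, 38 (9.62%) were at least 0.25 higher in T34, 54 were at least 0.25 lower in T34, and 303 lay between. Of 345 at least 0.4 higher in both transformants, 19 (5.51%) were at least 0.25 lower in T34, 65 were at least 0.25 higher and 261 lay between. These counts share the control arrays and were not tested. In the 38, the median difference from control was -0.98 in amdS122 (-4.00 to -0.44), -0.93 in amdS6 (-3.75 to -0.43) and 0.38 in T34 (0.25 to 1.51). In the 19, it was 1.12 in amdS122 (0.50 to 2.10), 0.78 in amdS6 (0.42 to 1.25) and -0.36 in T34 (-1.34 to -0.25). At the medians, the T34 side was the smaller one in both sets, though the choice itself asked for less from T34 (0.25) than from the transformants (0.4).

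**Figure D1:**
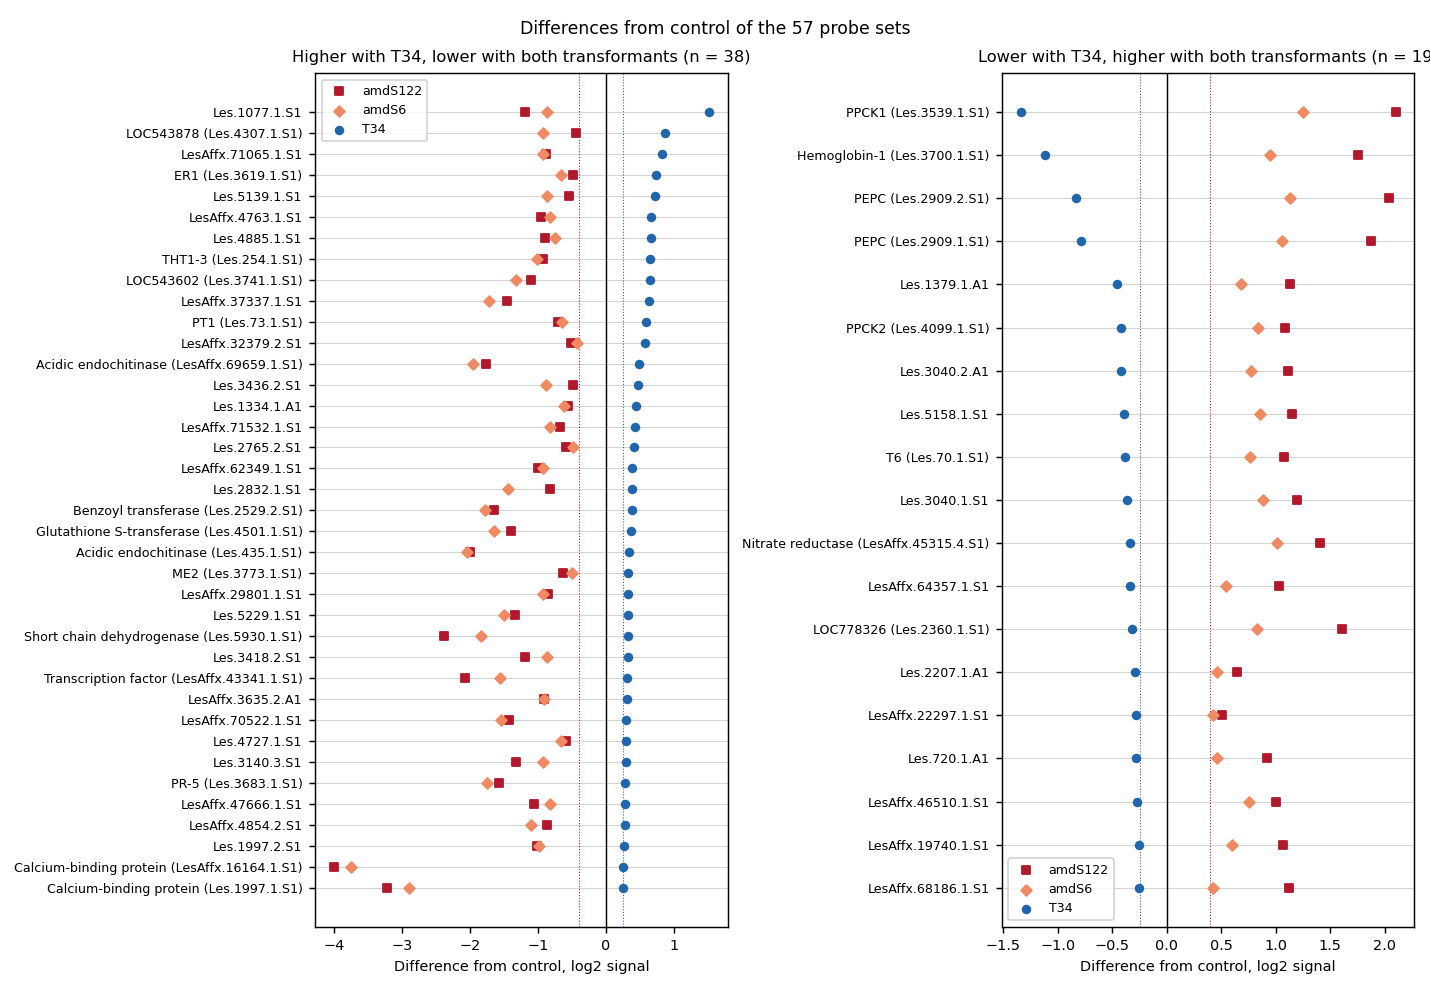
Difference of each strain's mean log2 signal from the control mean (x axis, log2) for the 38 probe sets higher with T34 (left) and the 19 lower with T34 (right), 1 row per probe set, n = 3 arrays per group; dotted lines mark the limits of 0.25 (T34) and 0.4 (transformants). In the right panel amdS122 lies beyond amdS6 in all 19 rows, and in the left panel the order of amdS122 and amdS6 varies from row to row.

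The arrays of both transformants did not overlap the control arrays in any of the 57 members. Over all probe sets, arrays did not overlap in the lower direction in 22.8% for amdS122 and 22.8% for amdS6, and in the higher direction in 31% for amdS122 and 30.3% for amdS6. The T34 arrays did not overlap the control arrays in 34 of the 38 (13.2% of all probe sets lay apart in that direction) and in 17 of the 19 (11.5%). The 6 whose T34 arrays overlapped were LesAffx.47666.1.S1_at, LesAffx.4854.2.S1_at, Les.1997.2.S1_at, the calcium-binding protein Les.1997.1.S1_at, LesAffx.22297.1.S1_at and LesAffx.68186.1.S1_at. Between T34 and control arrays of the same number, 37 of the 38 and 18 of the 19 kept their direction in all 3 pairs. The exceptions were Les.1997.2.S1_at and LesAffx.68186.1.S1_at. The choice required this sign of the means, the share over all probe sets was not counted, and the numbers were not taken as pairs. At a fold change of 2 and an adjusted p under 0.1 (limma), 19 of the 38 were lower in amdS122 (1.7% of all probe sets), 16 in amdS6 (1.33%), and 1 was higher in T34 (0.0598%). In the other direction 16 of the 19 were higher in amdS122 (0.438%), 4 in amdS6 (0.339%), and 2 were lower in T34 (0.0299%). These counts follow from the choice, and nothing is read from them about the members.

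Members near the limits were as follows. In the first set the calcium-binding protein Les.1997.1.S1_at lay just inside the T34 limit at 0.2505, and Les.3140.2.S1_at just outside it at 0.2497. LesAffx.32379.2.S1_at lay nearest inside the transformant limit (amdS6 -0.43), and LesAffx.30145.1.S1_at nearest outside (amdS122 -0.38). In the second set LesAffx.68186.1.S1_at was nearest inside both limits (T34 -0.25, amdS6 0.42). LOC544276, listed with the synonym ICL (isocitrate lyase, the glyoxylate cycle enzyme), missed the T34 limit at -0.21 although it was higher by 1.18 in amdS122 and 0.96 in amdS6, and Les.661.1.A1_at missed the transformant limit at 0.39 in amdS6.

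PEPC and its kinases led the set that was lower with T34. All 4 probe sets that could be assigned to PEPC or a PEPC kinase on this array were members, and 3 of the 4 largest T34 differences of the set were theirs. The PEPC probe sets were known only from descriptions in the study's tables, which list probe sets it called changed. An unchanged PEPC probe set without a symbol could therefore not be counted. PPCK1 (Les.3539.1.S1_at, chromosome 4), a kinase of PEPC, read 8.90, 8.79 and 8.85 in amdS122, 7.94, 8.04 and 8.02 in amdS6, 5.56, 5.43 and 5.22 in T34, and 6.72, 6.75 and 6.76 in control. The 4 groups were fully apart, with T34 lowest and amdS122 highest. PPCK1 was 4.29-fold higher than control in amdS122, 2.38-fold higher in amdS6 and 2.54-fold lower in T34. The study's own table describes this probe set as a phosphoenolpyruvate carboxykinase, whereas the array annotation gives PPCK1, which is used here.

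The 2 PEPC probe sets behaved alike. Les.2909.2.S1_at read 9.19, 9.40 and 9.27 in amdS122, 8.24, 8.46 and 8.40 in amdS6, 6.37, 6.39 and 6.46 in T34, and 7.14, 7.26 and 7.32 in control. Les.2909.1.S1_at read 10.72, 10.88 and 10.84 in amdS122, 9.91, 10.06 and 10.02 in amdS6, 8.17, 8.16 and 8.13 in T34, and 8.90, 8.96 and 8.96 in control. Both share an identifier number and may read the same gene, so they are not independent. Relative to control they were 4.12-fold and 3.66-fold higher in amdS122, 2.19-fold and 2.08-fold higher in amdS6, and 1.78-fold and 1.73-fold lower in T34. A second kinase, PPCK2 (Les.4099.1.S1_at, chromosome 6), read 7.40, 7.58 and 7.41 in amdS122, 7.23, 7.19 and 7.23 in amdS6, 6.14, 5.92 and 5.81 in T34, and 6.18, 6.38 and 6.59 in control. Its highest T34 array (6.14) lay just under its lowest control array (6.18).

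Nitrogen metabolism was represented by a hemoglobin and a nitrate reductase. The non-symbiotic haemoglobin-1 probe set (Les.3700.1.S1_at) read 10.24, 10.25 and 10.28 in amdS122, 9.45, 9.43 and 9.44 in amdS6, 7.43, 7.34 and 7.37 in T34, and 8.45, 8.53 and 8.53 in control. The groups were again fully apart, by 3.39-fold above control in amdS122, 1.92-fold above in amdS6 and 2.17-fold below in T34. Nitrate reductase (LesAffx.45315.4.S1_at) had a smaller T34 side. It read 12.04, 11.97 and 12.02 in amdS122, 11.67, 11.58 and 11.59 in amdS6, 10.28, 10.33 and 10.18 in T34, and 10.67, 10.62 and 10.51 in control. This was 2.65-fold above control in amdS122, 2.01-fold above in amdS6 and 1.26-fold below in T34, with no overlap between groups.

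Members of other roles completed the named part of this set. T6 (Les.70.1.S1_at, chromosome 2, listed with the synonyms LeT6 and TKn2) is a KNOTTED1-like homeobox factor of the shoot meristem and of compound leaf primordia. It read 6.90, 7.06 and 7.12 in amdS122, 6.65, 6.74 and 6.75 in amdS6, 5.72, 5.45 and 5.51 in T34, and 5.93, 5.84 and 6.08 in control, with the 4 groups apart. LOC778326 (Les.2360.1.S1_at, chromosome 10), for which the annotation gives no function, read 9.76, 9.72 and 9.70 in amdS122, 8.83, 8.98 and 9.02 in amdS6, 7.73, 7.83 and 7.82 in T34, and 8.13, 8.20 and 8.01 in control. Its amdS122 level was 3.06-fold above control against 1.78-fold in amdS6.

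**Figure D2:**
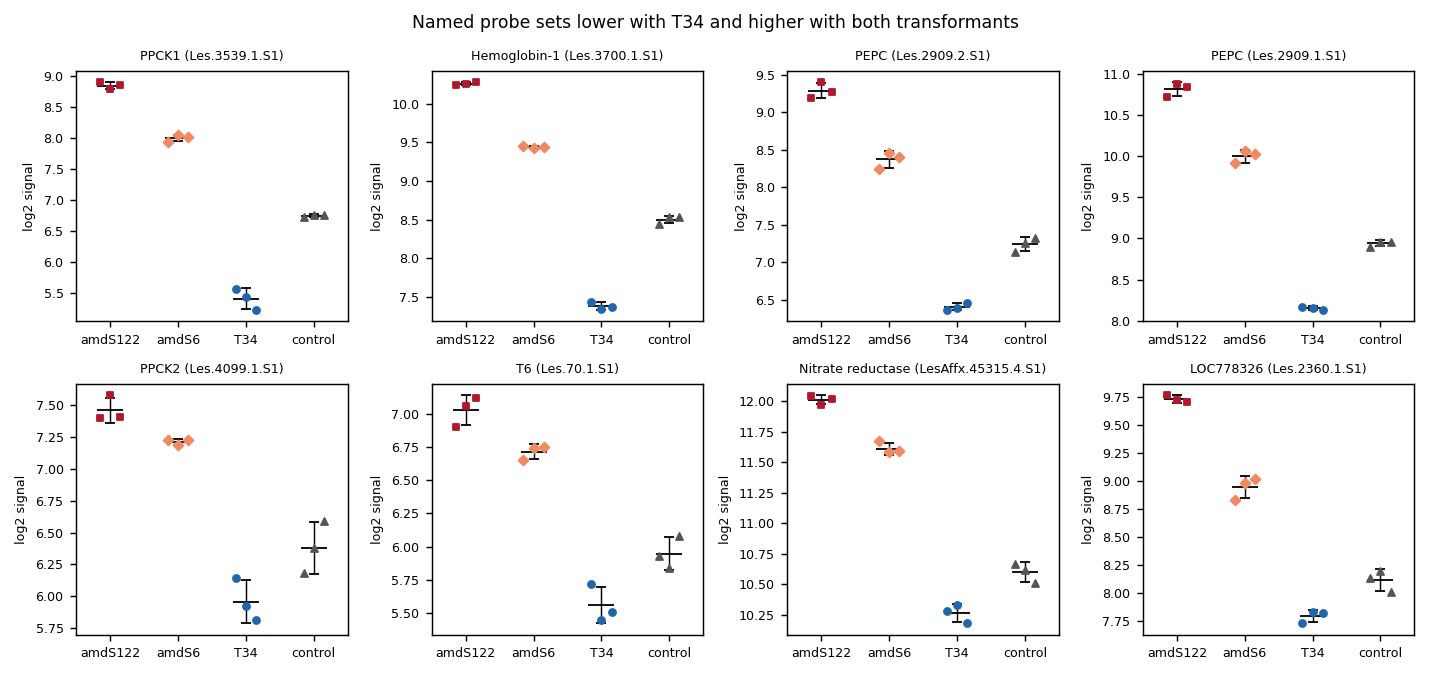
Log2 signal (y axis) of the 8 named probe sets lower with T34 in each array of amdS122, amdS6, T34 and control, with group mean and SD (bars, n = 3); y axes differ between panels and do not start at 0. In every panel the 4 groups are apart in the order T34, control, amdS6 and amdS122 from low to high.

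The other 11 members of the set have no name in the annotation or tables used here. Among them the largest T34 differences belonged to Les.1379.1.A1_at (amdS122 1.13, amdS6 0.68, T34 -0.46), Les.3040.2.A1_at (1.12, 0.78 and -0.42 in the same order) and Les.5158.1.S1_at (1.15, 0.86 and -0.39). Les.3040.2.A1_at shares its identifier number with a further member, Les.3040.1.S1_at (1.19, 0.88 and -0.36). In 17 of the 19 members all 4 groups lay apart in the order T34, control, amdS6 and amdS122 from low to high, as in 0.737% of all probe sets. Of this order, only the place of amdS122 beyond amdS6 does not follow from the choice. The exceptions were LesAffx.22297.1.S1_at and LesAffx.68186.1.S1_at.

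In the set lower with T34, amdS122 was above amdS6 in all 19 members, by a median of 0.45 (0.08 to 0.92) against 0.02 over all probe sets. In limma with adjustment over all probe sets, 18 of the 19 were higher in amdS122 at an adjusted p under 0.1, where 19.4% of all probe sets were called higher, and 0 were called lower, where 18.7% were, since no difference was below 0. None of the 19 differed by 2-fold, as did 0.0598% of all probe sets in this direction. The arrays of amdS122 and amdS6 did not overlap in 18 members, against 24% of all probe sets in that direction.

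The largest differences were those of PEPC and PPCK1. The PEPC probe sets were 1.89-fold (0.92 ± 0.07, log2 difference with standard error, limma adjusted p = 1.98e-06, Les.2909.2.S1_at) and 1.76-fold (0.82 ± 0.05, limma adjusted p = 5.25e-07, Les.2909.1.S1_at) higher in amdS122. For PPCK1 the ratio was 1.80 (0.85 ± 0.07, limma adjusted p = 3.81e-06), and for haemoglobin-1 1.76 (0.82 ± 0.04, limma adjusted p = 5.82e-08). LOC778326 was 1.72-fold higher (limma adjusted p = 2.26e-06), nitrate reductase 1.32-fold (limma adjusted p = 0.000154) and T6 1.24-fold (limma adjusted p = 0.0129). PPCK2 was near the threshold at 1.19-fold (limma adjusted p = 0.0872, 95% confidence interval of the log2 difference 0.026 to 0.47). That call was lost without any 1 of the 6 transformant arrays (adjusted p 0.105 to 0.249), without T34 replicate 2 (0.104) and without control replicate 2 (0.107). The unnamed LesAffx.22297.1.S1_at did not pass (0.08, 95% confidence interval -0.18 to 0.33, limma adjusted p = 0.666).

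The size of this difference depended on the scaling. With each array scaled on its hybridisation spikes, an alternative added after the data were seen, the median of all probe sets moved to -0.26, because the spikes were dimmer in amdS6. The 19 then had a median of 0.17, with 15 above 0 and 6 called higher, and the 4 below 0 were PPCK2, Les.2207.1.A1_at, LesAffx.22297.1.S1_at and LesAffx.46510.1.S1_at. Nitrate reductase (adjusted p = 0.438) and T6 (0.83) were no longer called. This scaling adds 1 constant per array, so the place of the 19 relative to the median of all probe sets (0.43 above it, with all 19 above) is the same by construction. With the 3' to 5' measure of each array added to the fit, also chosen later, 18 of the 19 were above 0 and 13 were called higher, where 1275 of the 10038 were. T6 (adjusted p = 0.311) and PPCK2 (0.724) were not among the called probe sets in that fit.

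**Figure D3:**
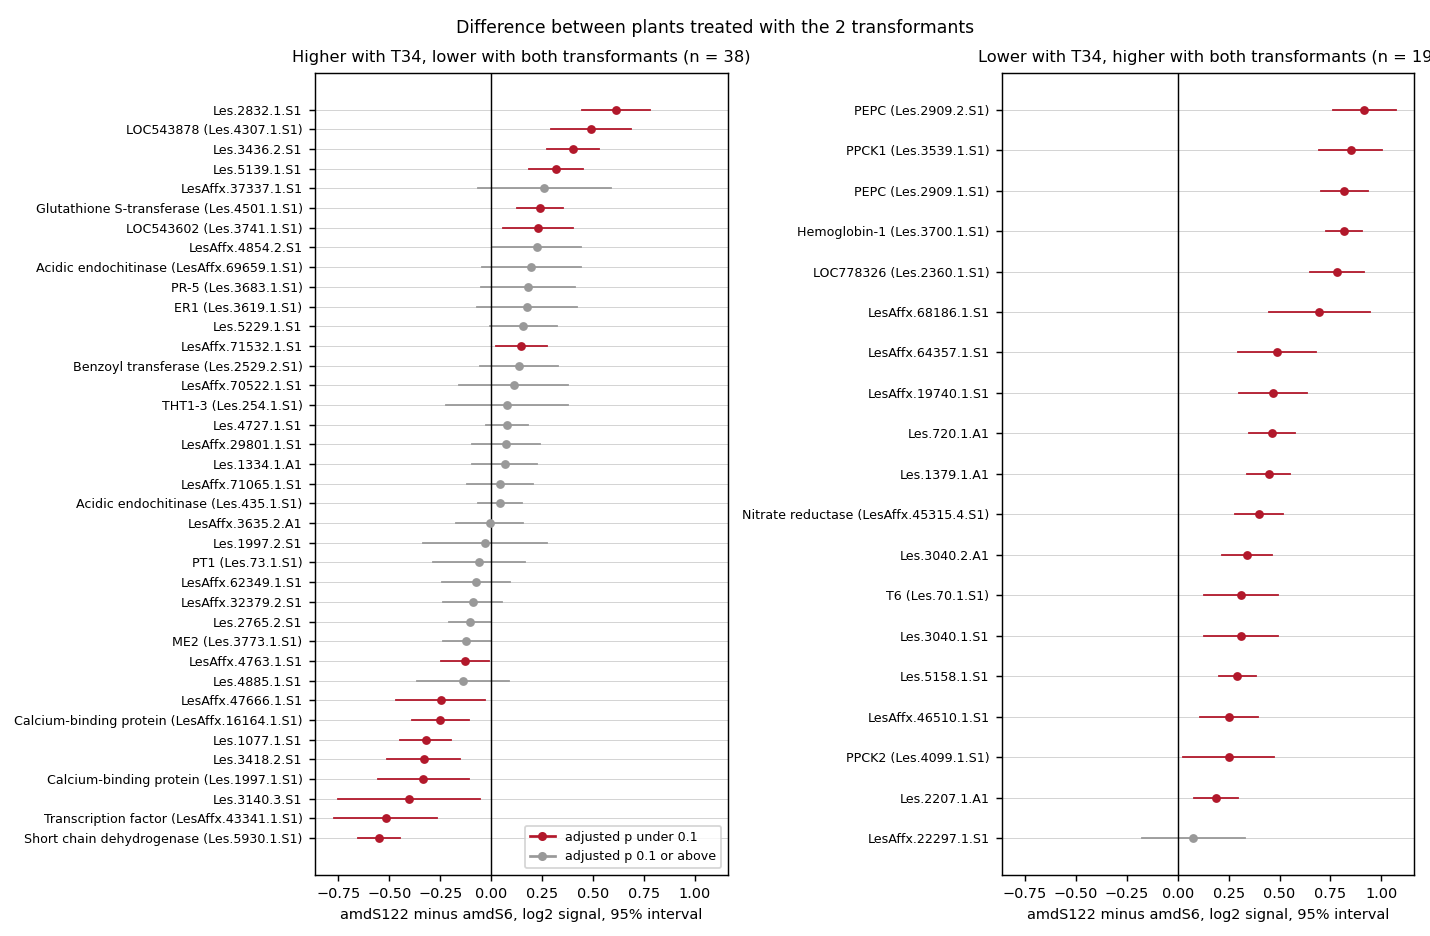
Difference in log2 signal between amdS122 and amdS6 (x axis) with its 95% confidence interval from limma for the 38 probe sets higher with T34 (left) and the 19 lower with T34 (right), sorted by size; red marks an adjusted p under 0.1. All 19 points on the right are above 0 and 18 are red, while on the left 7 red points are above 0 and 9 below.

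In the 38 members higher with T34, amdS122 and amdS6 did not differ in a common direction. The median difference was 0.05 (-0.55 to 0.61), 21 were above 0 and 17 below. Of the 38, 7 were called higher in amdS122 (19.4% of all probe sets) and 9 lower (18.7%), so both shares lay near those of all probe sets, and none passed 2-fold (0.0598% of all probe sets higher, 0.658% lower). Arrays did not overlap in 9 members with amdS122 higher (24%) and 11 with amdS122 lower (22%). With spike scaling 1 was called higher and 17 lower. Leaving out 1 array at a time gave 6 to 9 calls in each direction. In 9 of the 38 all 4 groups lay apart in the order T34, control, amdS6 and amdS122 from high to low, as in 0.628% of all probe sets, and this too follows from the choice except for amdS6 and amdS122.

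For comparison, the same test over the other probe sets that moved with both transformants gave different shares. Where both were at least 0.4 higher and T34 lay between its limits, 73 of 261 were called higher in amdS122 and 19 lower. Where T34 was at least 0.25 higher too, 9 of 65 were called higher and 19 lower. Where both were lower, the counts were 22 higher and 102 lower of 303 with T34 between its limits, and 4 higher and 14 lower of 54 with T34 lower. These classes were set against each other by counts only, and the difference between them was not tested.

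Among the 15 named members higher with T34 were pathogenesis-related proteins, endochitinases and a proteinase inhibitor. PR-5 (Les.3683.1.S1_at, chromosome 8), described as PR-5x, and LOC543878 (Les.4307.1.S1_at, chromosome 8, synonym PR5) belong to the thaumatin-like family of pathogenesis-related proteins. LOC543878 read 5.99, 6.13 and 6.15 in amdS122, 5.54, 5.50 and 5.76 in amdS6, 7.22, 7.50 and 7.47 in T34, and 6.65, 6.43 and 6.52 in control. Its T34 level was 1.82-fold above control, while it was 1.36-fold below in amdS122 and 1.91-fold below in amdS6. For PR-5 the weight lay on the other side. Its values were 6.40, 6.80 and 6.67 in amdS122, 6.50, 6.31 and 6.53 in amdS6, 8.35, 8.55 and 8.55 in T34, and 8.07, 8.20 and 8.34 in control, so that the lowest T34 array (8.35) lay just above the highest control array (8.34).

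Acidic endochitinases cut the chitin of fungal cell walls, and 2 probe sets with this description were members. Les.435.1.S1_at read 8.21, 8.10 and 8.16 in amdS122, 8.09, 8.14 and 8.12 in amdS6, 10.51, 10.42 and 10.56 in T34, and 10.09, 10.19 and 10.20 in control. It was about equally low in both transformants, at 4.01-fold below control in amdS122 and 4.13-fold in amdS6, and 1.26-fold above control in T34. LesAffx.69659.1.S1_at was 3.38-fold below control in amdS122, 3.88-fold below in amdS6 and 1.40-fold above in T34. A probe set with its identifier number, LesAffx.69659.2.S1_at, was near control in all groups (0.04, 0.19 and 0.04 for amdS122, amdS6 and T34), so the 2 may read different transcripts.

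ER1 (Les.3619.1.S1_at, chromosome 8), an ethylene-responsive proteinase inhibitor I, read 4.63, 4.86 and 4.97 in amdS122, 4.62, 4.77 and 4.56 in amdS6, 5.85, 5.97 and 6.30 in T34, and 5.32, 5.21 and 5.39 in control. It was dim in every group, and the T34 arrays spread more (SD 0.23) than those of control (SD 0.09). THT1-3 (Les.254.1.S1_at, chromosome 8) makes hydroxycinnamic acid amides of tyramine, which are laid down in cell walls. It read 5.60, 5.12 and 5.47 in amdS122, 5.27, 5.18 and 5.49 in amdS6, 7.07, 6.99 and 6.88 in T34, and 6.38, 6.55 and 6.07 in control. The strains lay apart from control on both sides, and the 2 transformants overlapped.

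LOC543602 (Les.3741.1.S1_at, chromosome 11) carries the synonym Eli3, a name given to elicitor-induced transcripts. Its signals were 5.50, 5.47 and 5.46 in amdS122, 5.12, 5.31 and 5.30 in amdS6, 7.22, 7.10 and 7.32 in T34, and 6.41, 6.62 and 6.69 in control. A second probe set of the same symbol, Les.3741.1.A1_at, was dim (4.31 in control) and did not follow it (-0.08, -0.09 and -0.08 for amdS122, amdS6 and T34). Glutathione S-transferase (Les.4501.1.S1_at), a detoxifying enzyme, read 8.93, 8.83 and 8.98 in amdS122, 8.70, 8.71 and 8.62 in amdS6, 10.64, 10.70 and 10.71 in T34, and 10.24, 10.35 and 10.36 in control. It was 2.64-fold below control in amdS122, 3.12-fold below in amdS6 and 1.29-fold above in T34.

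Probe sets described as calcium-binding proteins had the deepest transformant side of all 57 members. LesAffx.16164.1.S1_at read 4.68, 4.94 and 4.90 in amdS122, 5.08, 5.04 and 5.15 in amdS6, 9.11, 9.12 and 9.07 in T34, and 8.82, 8.88 and 8.83 in control. This was 16.0-fold below control in amdS122 and 13.5-fold below in amdS6, against 1.20-fold above in T34. Its mean signal lay at percentile 17.3 of all probe sets in amdS122 and 20.4 in amdS6, against 67.2 in T34 and 64.0 in control. Les.1997.1.S1_at was 9.36-fold and 7.43-fold below control in amdS122 and amdS6, and its T34 arrays (8.05, 8.10 and 7.83) overlapped those of control (7.80, 7.88 and 7.54). T34 was above control in each same-numbered pair, but the choice required this sign of the means and the numbers were not taken as pairs. The percentiles of this probe set were 12.6 in amdS122 and 17.8 in amdS6. No detection call was used, and whether these low signals were above background was not tested, so the fold differences are those of the summarised signals only. Les.1997.3.A1_at, with the same number and description, was lower by 2.67 in amdS122 and 2.70 in amdS6 on the log2 scale, and its T34 difference of 0.15 was under the limit. Les.1997.2.S1_at, a member without a description, shares this number and had a smaller transformant side (-1.01 in amdS122, -0.99 in amdS6 and 0.27 in T34). Probe sets of this number may read the same gene, so they are not independent. For the 2 members described as calcium-binding proteins the opposite response was a large transformant side with a small T34 side.

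The remaining named members were enzymes of metabolism, a transporter and a transcription factor. ME2 (Les.3773.1.S1_at, chromosome 5), an NADP malic enzyme that turns malate into pyruvate, read 10.11, 10.24 and 10.31 in amdS122, 10.36, 10.29 and 10.37 in amdS6, 11.13, 11.17 and 11.23 in T34, and 10.81, 10.85 and 10.88 in control. PT1 (Les.73.1.S1_at, chromosome 9), a phosphate transporter best known from roots, read 7.22, 7.32 and 7.22 in amdS122, 7.30, 7.32 and 7.33 in amdS6, 8.46, 8.49 and 8.69 in T34, and 7.67, 8.03 and 8.17 in control. Its control arrays spread the most of the named members of this set (SD 0.26). The strains were still apart from them on both sides.

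The short chain dehydrogenase/reductase Les.5930.1.S1_at belongs to a large family of oxidoreductases. It read 9.44, 9.51 and 9.53 in amdS122, 10.09, 10.04 and 10.00 in amdS6, 12.17, 12.17 and 12.27 in T34, and 11.82, 11.87 and 11.94 in control, with all 4 groups apart. The probe set described as a transcription factor, LesAffx.43341.1.S1_at, read 5.95, 5.49 and 5.74 in amdS122, 6.30, 6.06 and 6.37 in amdS6, 8.08, 8.18 and 8.08 in T34, and 7.70, 7.73 and 7.99 in control. Here too the groups were apart and amdS122 was lowest. Les.2529.2.S1_at, described as a benzoyl-CoA:benzyl alcohol benzoyl transferase, which makes a volatile ester, was 3.13-fold below control in amdS122, 3.44-fold below in amdS6 and 1.30-fold above in T34.

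**Figure D4:**
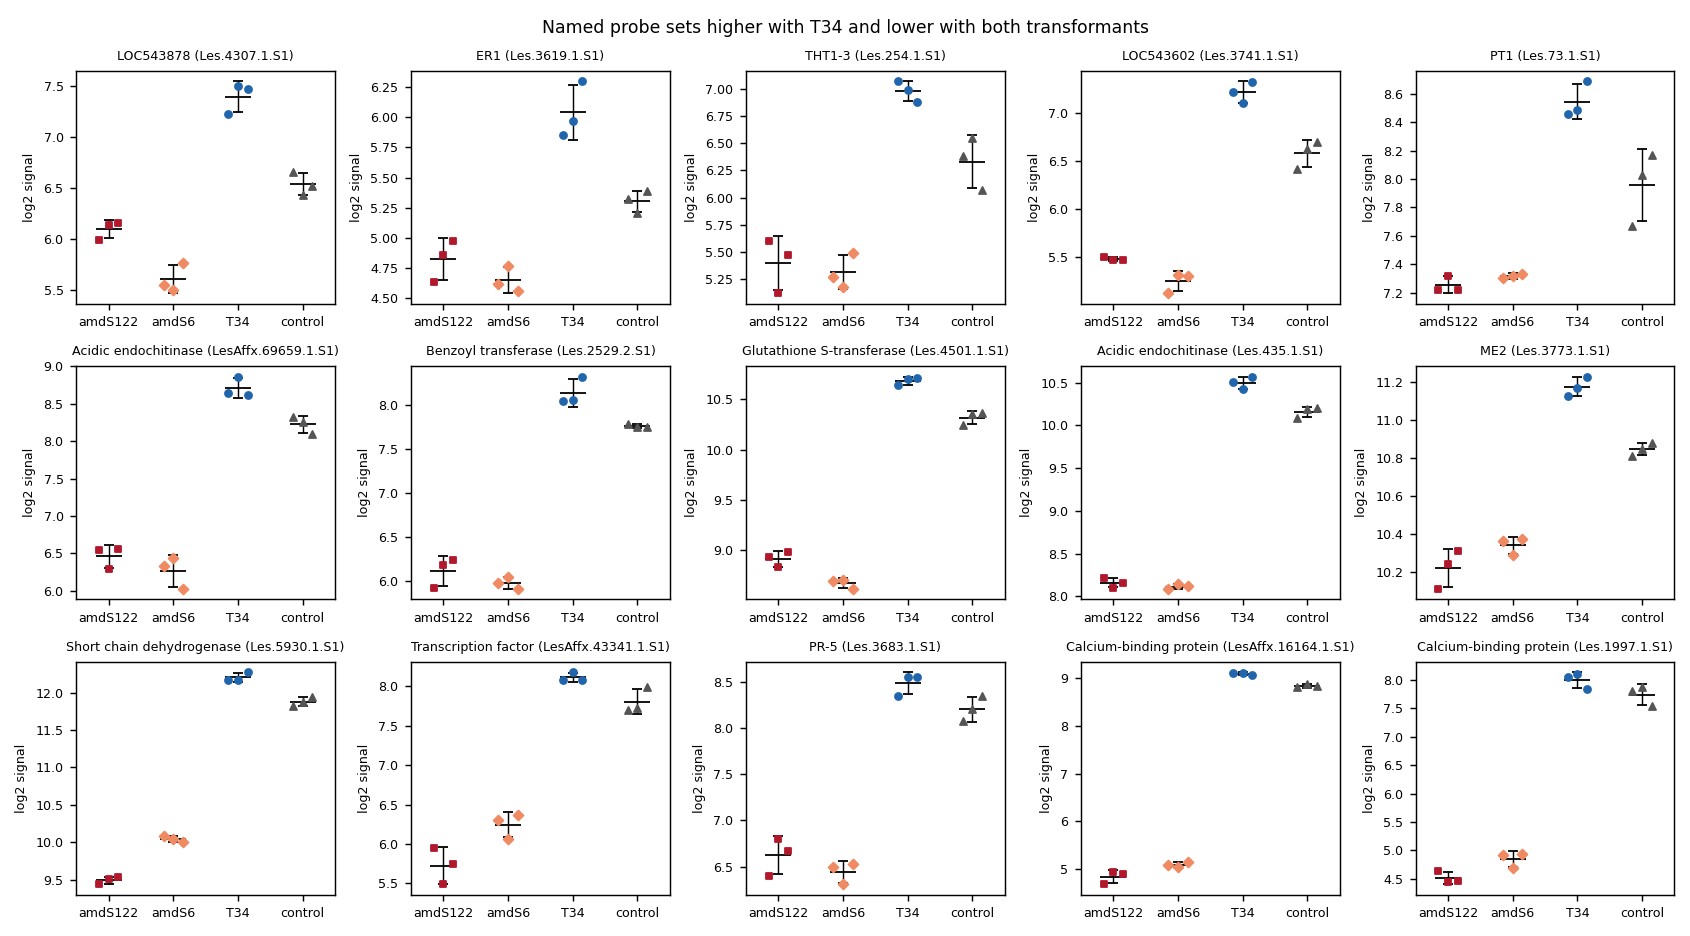
Log2 signal (y axis) of the 15 named probe sets higher with T34 in each array of amdS122, amdS6, T34 and control, with group mean and SD (bars, n = 3); y axes differ between panels and do not start at 0. T34 is highest and both transformants lie below control in every panel, and in the 2 calcium-binding protein panels the transformants lie far below while T34 and control lie close together.

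Between amdS122 and amdS6, 7 of these 15 named members were called. LOC543878 (0.49 ± 0.09, log2 difference with standard error, limma adjusted p = 0.00133), glutathione S-transferase (0.24 ± 0.05, 0.00375) and LOC543602 (0.23 ± 0.08, 0.0428) were higher in amdS122. Those lower in amdS122 were the short chain dehydrogenase/reductase (-0.55 ± 0.05, limma adjusted p = 4.94e-06), the transcription factor (-0.52 ± 0.12, 0.00494) and the calcium-binding proteins LesAffx.16164.1.S1_at (-0.25 ± 0.06, 0.0103) and Les.1997.1.S1_at (-0.33 ± 0.10, 0.0272). The call of LOC543602 was lost without amdS122 replicate 1 (adjusted p = 0.102) and without amdS6 replicate 1 (0.156). With the 3' to 5' measure added to the fit, LOC543602 (adjusted p = 0.309), the transcription factor (-0.37, 0.141) and Les.1997.1.S1_at (-0.13, 0.523) were not called. With spike scaling, LOC543878 (0.21, 0.184), glutathione S-transferase (-0.034, 0.838) and LOC543602 (-0.044, 0.788) were not. For the acidic endochitinase Les.435.1.S1_at the 95% confidence interval of the difference was -0.07 to 0.15 and for PT1 -0.29 to 0.17. Some of the other 8 crossed the threshold when an array was left out, namely PR-5 (adjusted p = 0.0438) and the benzoyl transferase (0.0484) without amdS122 replicate 1, LesAffx.69659.1.S1_at (0.0959) without amdS122 replicate 2, and ME2 without amdS6 replicate 2 (0.0968) or amdS122 replicate 3 (0.0432).

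Of the 38, 23 have no name in the annotation or tables used here, among them the member with the largest T34 difference. Les.1077.1.S1_at read 3.88, 3.94 and 3.90 in amdS122, 4.33, 4.23 and 4.13 in amdS6, 6.64, 6.66 and 6.54 in T34, and 5.16, 5.11 and 5.03 in control. The mean signal lay at percentile 2.83 of all probe sets in amdS122, 8.57 in amdS6, 35.8 in T34 and 20.5 in control. Whether the low signals were above background was not tested. The T34 level of this probe set was 2.86-fold above control, the largest T34 difference in the higher direction over all probe sets, and the 4 groups were apart. LesAffx.71065.1.S1_at (-0.88, -0.92 and 0.82 for amdS122, amdS6 and T34) and Les.5139.1.S1_at (-0.55, -0.87 and 0.72) followed.

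Signal level and spread were not used in the choice. The percentile of mean signal among all probe sets had a median of 39.8 (17.4 to 86.6) in the 38 and 64.6 (27.3 to 91.3) in the 19. The SD within groups, averaged over the 4 groups, had a median of 0.09 in the 38 and 0.07 in the 19, against 0.07 over all probe sets. Of the 38 members, 14 share an identifier number with probe sets outside the set, 20 in all, and 12 of those 20 had the same 3 signs. Only 10 were also past the limit in both transformants. Their T34 differences were all above 0 but small, from 0.014 (Les.3418.3.S1_at) to 0.2497 (Les.3140.2.S1_at), and so under the T34 limit. The share of all probe sets with these signs was not counted for the group means, so nothing is read from the sign counts. For the 19 no probe set with a shared identifier number was found outside the set.

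When probe sets were chosen by the same limits on 2 replicate numbers and read on the arrays of the third, most readings kept their directions. Some of the chosen probe sets lie outside the members. Of those chosen as higher with T34, 31 of 40, 35 of 41 and 35 of 45 were members with replicates 1, 2 and 3 read. Of those chosen as lower, 14 of 17, 17 of 17 and 15 of 17 were. Of 126 readings chosen as higher with T34, 120 (95.2%) kept all 3 signs, and all 6 losses were in the T34 sign. Of 51 chosen as lower with T34, 50 (98.0%) kept them. The choices overlap, so a probe set can be counted up to 3 times, and readings of 1 replicate number share the same arrays. The readings are therefore not independent. Over all probe sets 9.28% to 12.4% showed the first combination of signs on the same arrays and 12.4% to 15.5% the second. Those shares are of probe sets not chosen by size, so nothing is read from the contrast with them. The readings were past all limits in 79 cases (0.468% to 0.508% of all probe sets on the same arrays) and in 36 (0.169% to 0.209%). Among the probe sets chosen as lower with T34, amdS122 was above amdS6 in 17 of 17 for each replicate number read.

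**Figure D5:**
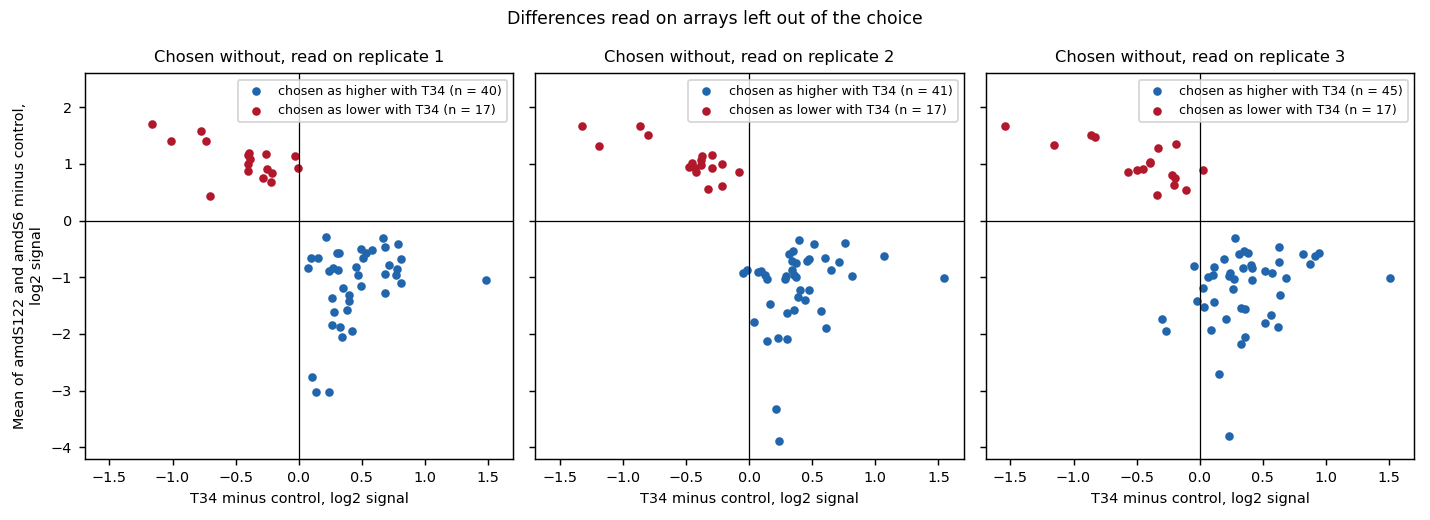
T34 difference from control (x axis, log2) against the mean difference of both transformants (y axis, log2) on the 4 arrays of 1 replicate number, for probe sets chosen by the same limits on the other 2 numbers. Points chosen as lower with T34 lie in the upper left, except 1 of 17 in the panel of replicate 3, and points chosen as higher with T34 lie in the lower right except 2 of 41 for replicate 2 and 4 of 45 for replicate 3.

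Related gene lists were read for the difference between amdS122 and amdS6. A probe set without a symbol could enter a list only by a description in the study's tables, which list probe sets called changed. The shares of a list therefore do not measure how far the members stand for a pathway. Of the 8 probe sets for nitrogen assimilation and hemoglobin, 2 were members, and 6 were called higher and 1 lower in amdS122 than in amdS6 (median 0.43). Outside the members these were the ammonium transporter AMT1-2 (0.56, limma adjusted p = 0.000123), both glutamate synthase probe sets gts1 (0.49, 5.85e-06, and 0.46, 0.0039), the hemoglobin GLB2 (0.35, 9.96e-05) and, lower, glutamate dehydrogenase gdh1 (-0.61, 1.68e-06). They did not share the opposite response: gts1 (Les.224.1.S1_at) stood at 0.20 in amdS122, -0.28 in amdS6 and -0.12 in T34. The PEPC list, with 4 of 4 members called higher, had a median of 0.83. Of 9 wound-induced anti-herbivore probe sets, 0 were members, and limma called 0 higher (0 at an unadjusted p under 0.05) and 4 lower (median -0.10). The largest of these were ARG2 (Les.3299.2.A1_s_at, -1.31, limma adjusted p = 8.57e-08, and LesAffx.1.1.S1_at, -1.07, 1.16e-06) and LAPA1 (-1.03, limma adjusted p = 5.05e-06). A further ARG2 probe set, Les.3299.1.S1_at, was not called (-0.06, limma adjusted p = 0.749). Of 12 light and clock probe sets 2 were called higher and 2 lower (median 0.05), HY5 among them (-0.85, 2.56e-05), and of 11 for terpene synthesis 3 higher and 2 lower (median 0.05), SSTLE1 among them (-0.84, 8.51e-08). Neither list held a member.

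Markers of other cell types were read in the same way. Of 5 shoot meristem markers, T6 was a member, and 3 were called higher in amdS122 than in amdS6. Their summed log2 signal was 7.72 to 7.84 in amdS122, 7.49 to 7.55 in amdS6, 6.93 to 7.06 in T34 and 7.12 to 7.23 in control, a sum that includes T6. Without T6, the other 4 summed to 6.49 to 6.51 in amdS122, 6.31 in amdS6, 6.25 to 6.34 in T34 and 6.35 to 6.46 in control, so that amdS6 lay below control. The differences from control were 0.22 in amdS122, -0.09 in amdS6 and -0.02 in T34 for TKN3, and 0.22, -0.19 and -0.06 in the same order for KN1. For KN4 they were 0.11, 0.0015 and -0.14, and for WUS, the defining gene of the stem cell niche, -0.16, -0.07 and -0.10. These 4 were all dim, at 4.10 (TKN3), 4.48 (KN1), 4.67 (KN4) and 4.26 (WUS) in control. Whether they were above background was not tested. Of 5 root markers, PT1 was a member, 2 were called higher (AMT1-2 and ext1) and 1 lower (FRO1). FRO1 stood at -0.44 in amdS122, -0.23 in amdS6 and 0.70 in T34 relative to control. The sums were 11.87 to 12.00 in amdS122, 11.39 to 11.59 in amdS6, 11.83 to 11.95 in T34 and 11.75 to 11.82 in control. They mostly read AMT1-2 (11.50 in control), which is also in the nitrogen list, while PT2 (4.57) and ext1 (3.81) were dim. Of 3 trichome markers 2, and of 2 flower markers 1, were called lower, and of 4 mesophyll markers 0 were called either way in limma (0 at an unadjusted p under 0.05). Neither trichome sums (7.81 to 8.09 in amdS122, 8.62 to 8.72 in amdS6, 8.08 to 8.21 in T34 and 7.23 to 7.37 in control) nor flower sums (7.72 to 7.79, 8.68 to 8.75, 6.50 to 6.77 and 7.94 to 8.17 in the same order) had the order of either set. The part of cell composition in the members' differences was not tested.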

How the data were processed

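RNA was hybridized to 12 Affymetrix Tomato Genome Arrays, 3 per group. The deposited values are log2 signals made by the authors with RMA in Affymetrix Expression Console (background correction, quantile normalization and summary into probe sets), versions not given in the sources used here. They were used as deposited, with precision limited by how many arrays there are. Of 10209 features, 10038 tomato probe sets were analysed, 108 control probe sets served for quality and 63 reporters were left out. Of the tomato probe sets 909 have 1 gene symbol in the array annotation, 0 several and 9129 none, and 885 were matched by gene identifier to RefSeq gene names. Descriptions of other named members come from the study's tables, which list only probe sets the study called changed. Named were all members with a symbol or description, the 3 unnamed members with the largest T34 difference per direction, probe sets at the limits, further probe sets of a named member's symbol, and up to 3 called genes per list. Others (probe sets that share an identifier number, overlapping members, gts1, GLB2, the other meristem markers and the chromosome 8 genes) were chosen after their values were seen.

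The difference between amdS122 and amdS6 was tested with limma 3.58.1 in R 4.3.3 on all 12 arrays, with 1 mean per group and Benjamini-Hochberg adjustment over the 10038 probe sets. In simulated data for this comparison with 10038 probe sets, 99 of 100 changes of 1 (log2) and 90 of 100 of 0.5 were recovered, and 18 unchanged probe sets were called. The simulated noise was normal and independent between probe sets and arrays, so effects shared by a whole array were not covered. Far fewer probe sets were changed in it than were called in the real data. Lists were described by counts, without set tests. The members and lists were chosen with earlier results of these data known. Alternatives covered scaling, limits, averaging, dim probe sets, the replicate block, the variance model and leaving out each array. Promoter motifs and sequences were not analysed here. The labels give the coating suspension as 20000000 spores per ml, and the study's methods give a higher value.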

Additional observations from a re-analysis of the deposited data

How the results depend on the processing

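The number of members was 38 and 19 as reported, and 61 higher with T34 at a T34 limit of 0.2, and 29 lower with T34 at a transformant limit of 0.3. The other limits, centring, a further quantile normalization, linear means, group medians and removal of dim probe sets gave 30 to 46 and 13 to 21. Spike scaling, which moved the median of all probe sets by 0.02 in amdS122, 0.30 in amdS6 and 0.08 in T34 relative to control, gave 53 and 21, with 31 of the 38 and 12 of the 19 kept. Leaving out 1 array at a time gave 37 to 54 and 15 to 21 members, and 25 of the 38 and 14 of the 19 were chosen in all 12 cases.

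Between amdS122 and amdS6, the 19 gave 17 to 18 higher calls in all alternatives other than spike scaling and the 3' to 5' measure in the fit (13), left-out arrays included, and 0 lower calls throughout. For the 38, leaving out 1 array gave 6 to 9 higher and 6 to 9 lower calls. Spike scaling gave 6 higher calls for the 19, and 1 higher and 17 lower calls for the 38. It moves the difference by the same amount in every probe set (median of all -0.26, against 0.02 as reported), so the sign changes under it say nothing particular to a gene. They were found for ER1 (-0.10), THT1-3 (-0.20), LOC543602 (-0.044), the acidic endochitinases LesAffx.69659.1.S1_at (-0.077) and Les.435.1.S1_at (-0.23), the benzoyl transferase (-0.14), glutathione S-transferase (-0.034), PR-5 (-0.10), LesAffx.71065.1.S1_at (-0.23) and PPCK2 (-0.026). With the 3' to 5' measure in the fit the difference changed sign for ER1 (-0.029), the benzoyl transferase (-0.058) and PR-5 (-0.063). For THT1-3, leaving out 1 array gave -0.022 (without amdS122 replicate 1) to 0.22 (without amdS122 replicate 2). Of these, LOC543602, glutathione S-transferase and PPCK2 had been called. The share of held-out readings that kept all signs was 100%, 95.1% and 91.1% for probe sets chosen as higher with T34 with replicates 1, 2 and 3 read. It was 100%, 100% and 94.1% for those chosen as lower with T34.

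The within-group deviations of same-numbered arrays had correlations between -0.05 and 0.55 over 18 pairs, 10 of them above 0.1. By this measure 7 of 12 arrays correlated best with their own number, so the numbers were not taken to pair the arrays. Between amdS122 and amdS6 the correlations were -0.0023 to 0.16, and between T34 and control, which were not tested, 0.17 to 0.55. With the replicate number as a block, 17 of the 19 were higher in amdS122 and 0 lower, and of the 38, 8 were higher and 10 lower. PPCK2 was not called with the block (adjusted p = 0.114) and ME2 was (0.0699). The block changed no other call of a named member.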

Other observations

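Some members higher with T34 lie close together in the tomato genome, a look taken after their values were seen. PR-5, ER1 and LOC543878 fall within 7 consecutive genes of chromosome 8 in the RefSeq annotation (assembly SLM_r2.1). NP24-I, an osmotin-like protein of the same thaumatin-like family, lies among them and is not a member, with differences from control of -0.09 in amdS122, -0.90 in amdS6 and 0.49 in T34. Together these 4 are all the annotated probe sets in a window of 27 genes that adds 10 genes on each side. NP24-I met the limits in amdS6 and T34 and not in amdS122. THT1-3, also on chromosome 8, is 669 genes away from PR-5.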
